A study of Mus musculus with 18 samples.

Results

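The genes described here are Enpp2, the lysophosphatidic acid receptors Lpar1 to Lpar6, and Plpp3, which are 8 of the 54532 genes in the count table. They were taken by matching the table's Ensembl identifiers to these mouse symbols, and Enpp2 was selected on its measured counts, which differed between the treatments in the non-microglial cells of this study. RNA was sequenced from retinas of rd1 mice on the FVB background at postnatal day 30. The rd1 allele is a mutation of the rod phosphodiesterase gene Pde6b that leads to early loss of rod photoreceptors, and every mouse of the study carried it. Mice were injected under the retina with the adeno-associated virus AAV8-GFP, alone or together with AAV8-TGFB1, so that the controls and the treated eyes all received AAV8-GFP. Retinas were dissociated with papain and sorted by antibody staining into microglia and non-microglia.

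The 4 groups were microglia after AAV8-GFP (7 libraries), microglia after AAV8-GFP + AAV8-TGFB1 (7 libraries), non-microglia after AAV8-GFP (2 libraries) and non-microglia after AAV8-GFP + AAV8-TGFB1 (2 libraries). They are called GFP and TGFB1 microglia and non-microglia here. The labels do not say which promoter drives the transgenes, how many eyes or animals make up a library, or which antibody was used for the sort. They do not say either that the replicates are separate animals, so a p-value here reflects library-to-library spread alone, part of which may be technical.

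Enpp2 encodes autotaxin, a secreted lysophospholipase D that makes lysophosphatidic acid from lysophosphatidylcholine outside the cell. Lysophosphatidic acid is a lipid signal that acts through G protein-coupled receptors: Lpar1, Lpar2 and Lpar3 belong to the Edg family, and Lpar4, Lpar5 and Lpar6 are closer to the purinergic receptors. Plpp3 encodes a lipid phosphate phosphatase of the cell surface that dephosphorylates lysophosphatidic acid and so ends its signal. The receptors couple to several G proteins, among them the Gα12/13 proteins that act on RhoA and, further on, on the SRF and YAP transcription programs.

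The libraries held 1582451 to 3064027 counts. The 8 microglial markers (Cx3cr1, P2ry12 and others) together came to 42113 ± 2340 CPM (counts scaled to 1000000 per library; SD, n = 7) in GFP microglia and 43246 ± 2194 CPM (SD, n = 7) in TGFB1 microglia, and to between 57.2 and 69.7 CPM in the 4 non-microglial libraries. A set of 8 Müller glia markers (Rlbp1, Slc1a3, Aqp4, Dkk3, Kcnj10, Car14, Vim and Abca8a) came to 11089 to 12781 CPM in the non-microglial libraries and to 138 to 620 CPM in the microglial ones. Mouse Tgfb1 had 462 and 402 counts in the TGFB1 non-microglia and 0 in both GFP non-microglial libraries, and the microglial groups overlapped, with 18 to 40 counts after GFP and 17 to 59 after TGFB1. Whether counts of Tgfb1 came from the virus or from the mouse gene cannot be told apart in these files. Xist, the RNA that marks an inactive X chromosome, reached at least 10 counts in 6 of the 14 microglial libraries, replicates 2, 7 and 8 of each treatment, and in 0 of the 4 non-microglial ones.

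Lpar5 and Lpar6 were higher in the microglia, and Lpar1 and Lpar3, with Enpp2 and Plpp3, were higher in the non-microglia. Lpar6 was also counted in the non-microglia, with 62 counts in all after GFP and 67 after TGFB1, where Lpar3 had 45 and 55. The stretches around the starts of these 4 receptor genes are shown so that their base composition can be compared. They are RefSeq promoters of mouse build GRCm38.p6, each from 250 bases before to 50 bases after a start, printed 5′ to 3′ on the strand of the gene. Capitals mark the CpG dinucleotides.
Lpar5, first start (chr6:125067670-125067969, plus strand): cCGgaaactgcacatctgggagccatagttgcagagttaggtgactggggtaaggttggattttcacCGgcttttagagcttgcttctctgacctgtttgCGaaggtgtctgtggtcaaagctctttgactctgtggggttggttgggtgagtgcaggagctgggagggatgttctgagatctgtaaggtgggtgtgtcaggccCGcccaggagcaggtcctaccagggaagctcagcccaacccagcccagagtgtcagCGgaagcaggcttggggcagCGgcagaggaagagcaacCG
Lpar5, second start (chr6:125071085-125071384, plus strand): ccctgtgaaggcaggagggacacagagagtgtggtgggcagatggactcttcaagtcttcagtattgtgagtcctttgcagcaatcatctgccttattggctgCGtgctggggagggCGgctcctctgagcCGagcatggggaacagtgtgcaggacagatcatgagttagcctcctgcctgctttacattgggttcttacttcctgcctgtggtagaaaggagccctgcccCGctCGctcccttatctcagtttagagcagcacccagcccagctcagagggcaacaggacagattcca
Lpar6 (chr14:73237641-73237940, plus strand): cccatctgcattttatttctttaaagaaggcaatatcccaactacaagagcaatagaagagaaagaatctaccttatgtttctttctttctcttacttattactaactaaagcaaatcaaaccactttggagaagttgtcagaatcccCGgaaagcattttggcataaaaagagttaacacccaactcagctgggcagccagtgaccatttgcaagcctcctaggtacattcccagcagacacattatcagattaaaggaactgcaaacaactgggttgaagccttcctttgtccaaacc
Lpar1 (chr4:58553244-58553543, minus strand): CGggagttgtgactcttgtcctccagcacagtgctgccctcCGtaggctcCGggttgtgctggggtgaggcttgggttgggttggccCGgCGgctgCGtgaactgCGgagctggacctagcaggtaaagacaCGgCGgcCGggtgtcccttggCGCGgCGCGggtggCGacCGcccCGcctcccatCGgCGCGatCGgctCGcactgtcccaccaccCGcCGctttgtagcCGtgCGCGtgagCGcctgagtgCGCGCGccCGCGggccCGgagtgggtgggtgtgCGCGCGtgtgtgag
Lpar3 (chr3:146220711-146221010, plus strand): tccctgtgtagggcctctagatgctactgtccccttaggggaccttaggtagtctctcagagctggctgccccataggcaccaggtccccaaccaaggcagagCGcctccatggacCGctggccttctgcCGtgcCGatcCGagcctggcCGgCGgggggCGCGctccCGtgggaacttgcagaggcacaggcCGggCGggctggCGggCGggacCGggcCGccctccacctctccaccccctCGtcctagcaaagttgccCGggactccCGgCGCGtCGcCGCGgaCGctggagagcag

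The table held 10 promoters for 7 of the 8 genes and none for Enpp2. The Lpar6 stretch held 1 CpG and 40% G or C, and the Lpar5 stretches held 7 and 5 CpG with 57.3% and 56% G or C. The Lpar1 stretch shown held 37 CpG and 71.7% G or C, and the Lpar3 stretch held 25 CpG and 70.3%. Plpp3, also a gene of the non-microglia, had 11 CpG and 46% G or C, so that the members of a fraction were not alike in this. The medians over 32851 mouse promoters of the same length were 7 CpG and 52.7%. Lpar1 has another 2 listed starts, with 14 and 3 CpG, so the contrast depends on which start is used, and the counts do not tell starts apart. On both strands, AGGAAGT, a core bound by the macrophage transcription factor PU.1, occurred once in the members' stretches, on the minus strand 51 bases before the second Lpar5 start, and 9.35% of all promoters held it. GGAATG, a core of the YAP partners of the TEAD family, also occurred once, on the minus strand 23 bases before the Lpar6 start, and 14.7% of all promoters held it. These 2 motifs do not overlap. A match is a match of letters and was not tested for binding.

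Enpp2 (ENSMUSG00000022425, GRCm38 chromosome 15, 54838901 to 54952892, minus strand) was a gene of the non-microglia. It had 957 and 690 counts in the GFP non-microglia, or 281 and 232 CPM, and 497 and 582 counts in the TGFB1 non-microglia, or 162 and 189 CPM. In the 7 GFP microglial libraries it had 5 to 27 counts, with a lowest level of 2.39, a median of 7.82 and a highest of 13.1 CPM. In the 7 TGFB1 microglial libraries it had 0 to 13 counts, with a lowest level of 0, a median of 4.89 and a highest of 8.47 CPM. Every non-microglial library stood above every microglial one, and the microglial treatments overlapped. Of its 5779 exon bases, 345 are shared with Gm26684 on the opposite strand, which had 10 counts or fewer in total in each group, against 1647 and 1079 counts of Enpp2 in the GFP and TGFB1 non-microglia.

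Plpp3 (ENSMUSG00000028517, chromosome 4, 105157347 to 105232764, plus strand), the enzyme that removes the signal, was the other abundant gene of the non-microglia. It had 1384 and 1193 counts after GFP, or 407 and 402 CPM, and 1106 and 1155 counts after TGFB1, or 361 and 375 CPM. The microglia had 5 to 27 counts after GFP and 0 to 28 after TGFB1, which is 6.30 ± 5.08 CPM (SD, n = 7) and 3.93 ± 7.06 CPM (SD, n = 7). Every non-microglial library stood above every microglial one.

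Among the Edg-family receptors, Lpar1 (ENSMUSG00000038668, chromosome 4, 58435255 to 58553898, minus strand), a receptor studied widely in the nervous system, had 70 and 72 counts in the GFP non-microglia and 60 and 54 in the TGFB1 non-microglia. These are 20.6 and 24.2 CPM after GFP, and 19.6 and 17.5 CPM after TGFB1. The microglia had 0 to 7 counts after GFP and 0 to 5 after TGFB1, with 5 of the 7 TGFB1 libraries at 0. Lpar3 (ENSMUSG00000036832, chromosome 3, 146220963 to 146286186, plus strand) had 23 and 22 counts in the GFP non-microglia, or 6.76 and 7.41 CPM, and 19 and 36 in the TGFB1 non-microglia, or 6.20 and 11.7 CPM. It had 3 counts in all over the 7 GFP microglial libraries and 0 over the 7 TGFB1 ones. Lpar2 (ENSMUSG00000031861, chromosome 8, 69822429 to 69831102, plus strand) had 3 to 9 counts in each of the 18 libraries, and its 4 group means, from 1.74 to 2.44 CPM, differed by less than the spread in the microglia.

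Of the other receptors, Lpar5 (ENSMUSG00000067714, chromosome 6, 125067920 to 125082472, plus strand) was counted in every microglial library and in no non-microglial one. The GFP microglia had 78 to 160 counts, with a lowest level of 45.9, a median of 53.7 and a highest of 59.1 CPM. The TGFB1 microglia had 63 to 140 counts, with a lowest level of 44.5, a median of 53.1 and a highest of 64.5 CPM. The 4 non-microglial libraries had 0 counts each, and 3 counts, the limit that a count of 0 allows, would be between 0.881 and 1.01 CPM in them.

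Lpar6 (ENSMUSG00000033446, chromosome 14, 73237895 to 73243294, plus strand) was counted in both fractions and higher in microglia. The GFP microglia had 153 to 283 counts, with levels from 80.9 to 112.7 and a median of 90.1 CPM, and the TGFB1 microglia had 104 to 231 counts, with levels from 73.4 to 112.9 and a median of 93.4 CPM. The non-microglia had 29 and 33 counts after GFP, or 8.52 and 11.1 CPM, and 39 and 28 counts after TGFB1, or 12.7 and 9.10 CPM. The single exon block of Lpar6 lies within the retinoblastoma gene Rb1, which is on the opposite strand, and 408 of its 5400 bases are shared with Rb1 exons. Whether the counting used strand is not given in the sources used here. Rb1 stood at 61.5 ± 7.20 CPM (SD, n = 7) in GFP microglia and 50.8 ± 1.57 CPM (SD, n = 2) in GFP non-microglia. The part of Rb1 reads in the Lpar6 counts of either fraction was not tested. Lpar4 (ENSMUSG00000049929, chromosome X, 106920625 to 106933900, plus strand) had 0 to 6 counts in a library and group means of 0.650 to 1.45 CPM.

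**Figure D1:**
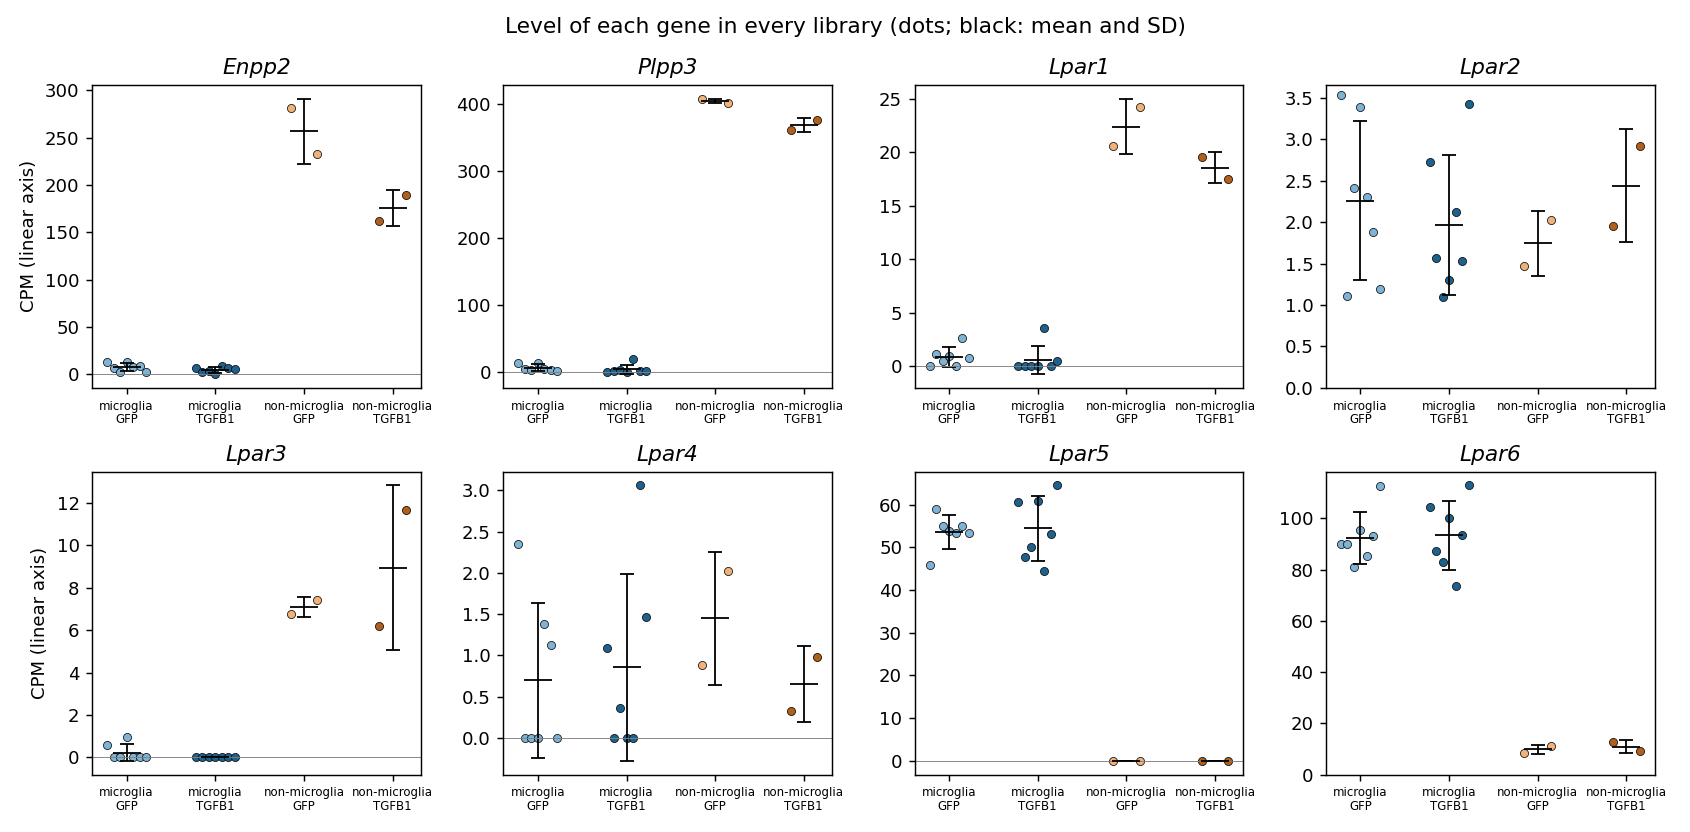
Level of each of the 8 genes, in CPM on a linear axis of its own, in each of the 18 libraries. Each point is 1 library, and the black lines are group means with 1 SD. Enpp2, Plpp3, Lpar1 and Lpar3 are higher in all 4 non-microglial libraries than in any microglial one, and Lpar5 and Lpar6 are higher in all 14 microglial libraries.

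Levels per kilobase of exon put the genes of a group in order. In GFP non-microglia the order of the levels was Plpp3 at 127.9 ± 1.07, Enpp2 at 44.4 ± 5.96, Lpar1 at 5.22 ± 0.61, Lpar3 at 2.87 ± 0.19 and Lpar6 at 1.82 ± 0.34 CPM per kilobase (SD, n = 2). Lpar4 at 0.34 and Lpar2 at 0.30 CPM per kilobase followed and did not differ beyond their spread, and Lpar5 was last at 0. In TGFB1 non-microglia Plpp3, at 116.5 ± 3.26, and Enpp2, at 30.4 ± 3.31 CPM per kilobase (SD, n = 2), again led, and Lpar1, at 4.33 ± 0.33, and Lpar3, at 3.63 ± 1.58, lay within their spread. In GFP microglia Lpar5 led with 35.4 ± 2.59, ahead of Lpar6 with 17.1 ± 1.88 CPM per kilobase (SD, n = 7), and Plpp3 at 2.0 ± 1.61 and Enpp2 at 1.33 ± 0.74 did not differ beyond their spread. The TGFB1 microglia had the same leading pair, Lpar5 at 35.9 ± 5.02 and Lpar6 at 17.3 ± 2.50 CPM per kilobase (SD, n = 7). Lpar6 had the higher count of the pair and Lpar5 the higher level for its length, since the exons of Lpar5 span 1515 bases and those of Lpar6 5400.

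**Figure D2:**
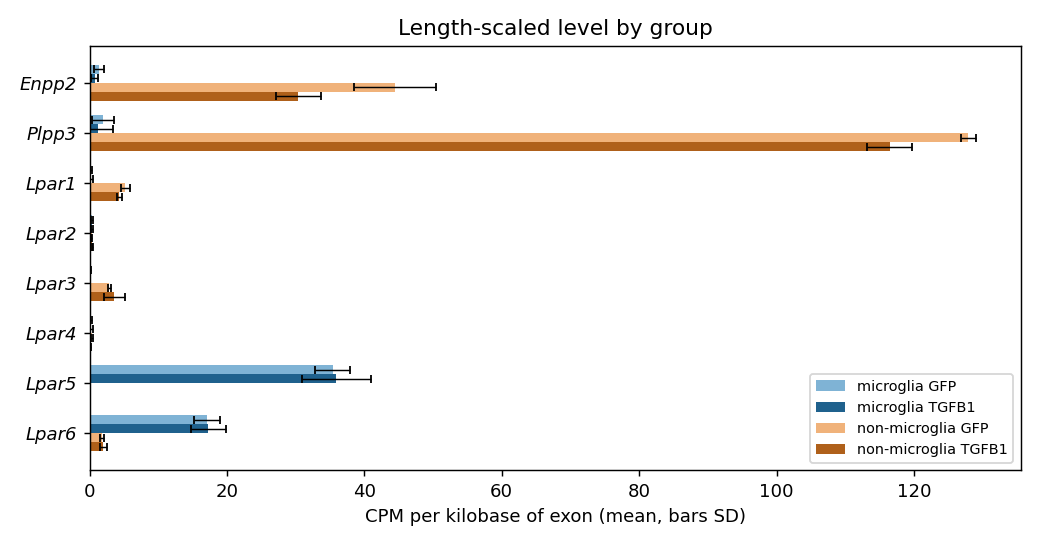
Level per kilobase of exon of each gene in the 4 groups, on a linear axis in CPM per kilobase. Bars are group means and lines are 1 SD. Plpp3 and Enpp2 lead in the non-microglia (127.9 and 44.4 CPM per kilobase after GFP) and Lpar5 and Lpar6 in the microglia (35.4 and 17.1).

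The comparison of the sorted fractions asks which cells hold the enzymes and which hold the receptors. In GFP libraries the non-microglia had 34.1-fold more Enpp2 and 68.0-fold more Plpp3 than the microglia, and the microglia had 9.44-fold more Lpar6 and at least 56.7-fold more Lpar5. The test was edgeR's quasi-likelihood test over all 4 groups, with Benjamini-Hochberg adjustment over 15321 genes, of which 64.2% were called at an adjusted p under 0.05 in this comparison, 29.9% higher and 34.2% lower in microglia. Among the 8 members, 2 were called higher and 4 lower. The groups of these 6 did not overlap, as in 63.4% of all genes tested. Enpp2 had a log2 fold change, microglia against non-microglia, of -5.09 (SE 0.37, edgeR adjusted p = 3.27e-09), and Plpp3 one of -6.09 (SE 0.52, edgeR adjusted p = 5.33e-08). Lpar1 had -4.52 (SE 0.59, edgeR adjusted p = 4.61e-07) and Lpar6 3.24 (SE 0.20, edgeR adjusted p = 5.47e-13). The bound for Lpar5 sets its mean level in microglia against 3 counts in each non-microglial library (edgeR adjusted p = 9.62e-15).

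Lpar3 rested on 45 counts in the GFP non-microglia and 3 in the GFP microglia, a ratio of 37.4 after scaling to library size with a 95% interval for counting error of 12 to 188. Its edgeR adjusted p was 2.16e-05 with a log2 fold change of -4.87 (SE 0.78). The call ended with the replicate number as a block, at -3.92 with an edgeR adjusted p of 0.0517. In that fit the difference between fractions rests on number 2, the only number that both fractions have, and no label ties the numbers together. Without GFP microglial replicate 5, which held 2 of the 3 counts, the change was -5.83. Lpar2 and Lpar4 did not pass the filter on low counts. Since a gene can pass that filter through the fraction where it is high, the count of 6 called genes is no evidence beyond the single values.

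The TGFB1 libraries, which share no library with the GFP comparison but were fitted in the same model, gave the same directions, 2 members higher and 4 lower, where 65.2% of all genes were called, 30.8% higher and 34.4% lower, and 64.5% had groups that did not overlap. The log2 fold changes were -5.40 for Enpp2 (SE 0.41, edgeR adjusted p = 5.72e-09), -6.81 for Plpp3 (SE 0.56, edgeR adjusted p = 4.06e-08), -5.32 for Lpar1 (SE 0.68, edgeR adjusted p = 3.53e-07) and 3.09 for Lpar6 (SE 0.20, edgeR adjusted p = 1.03e-12). Those of Lpar1 and Plpp3 depended on TGFB1 microglial replicate 6, and without it they were -7.21 and -7.98. Lpar5 was at least 55.8-fold higher in microglia (edgeR adjusted p = 1.09e-14) and Lpar3 at least 6.07-fold lower (edgeR adjusted p = 1.67e-06). The median log2 fold change of all genes tested was -0.06 after GFP and -0.04 after TGFB1. Scaling with edgeR's RLE size factors in place of TMM moved these medians by -0.12 in both. Relative to that shift, all 6 members tested kept their direction and their call.

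Enpp2 in the microglia stood at 2.99% of its level in the non-microglia after GFP and at 2.56% after TGFB1. Plpp3 stood at 1.56% and 1.07%, and Lpar1 at 3.82% and 3.09%. The 8 Müller glia markers, measured the same way, stood at 1.55% to 9.37% (median 2.02%) after GFP and at 0.98% to 6.99% (median 1.23%) after TGFB1. The low levels of the 3 genes in the microglial fraction fell within the range of these markers in both treatments. The 7 endothelial markers stood at 1.80% to 21.3% after GFP and 1.14% to 19.8% after TGFB1. The 10 bipolar cell markers stood at 1.85% to 20.3% and 0.756% to 21.1%. Enpp2 and Lpar1 lay within these ranges too, so such shares were not particular to Müller glia markers. Plpp3 lay below them, except for the bipolar range after TGFB1. How much of the low levels of the 3 genes came from other cells was not tested. In the other direction, Lpar6 in the non-microglia stood at 10.6% and 11.7% of its level in the microglia, while the 8 microglial markers stood at 0 to 0.78% after GFP and 0 to 1.02% after TGFB1. The Lpar6 share was above that of each of the 8 microglial markers in both treatments, and that of Lpar5 was 0. The part of Rb1 reads in the Lpar6 share was not tested.

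**Figure D3:**
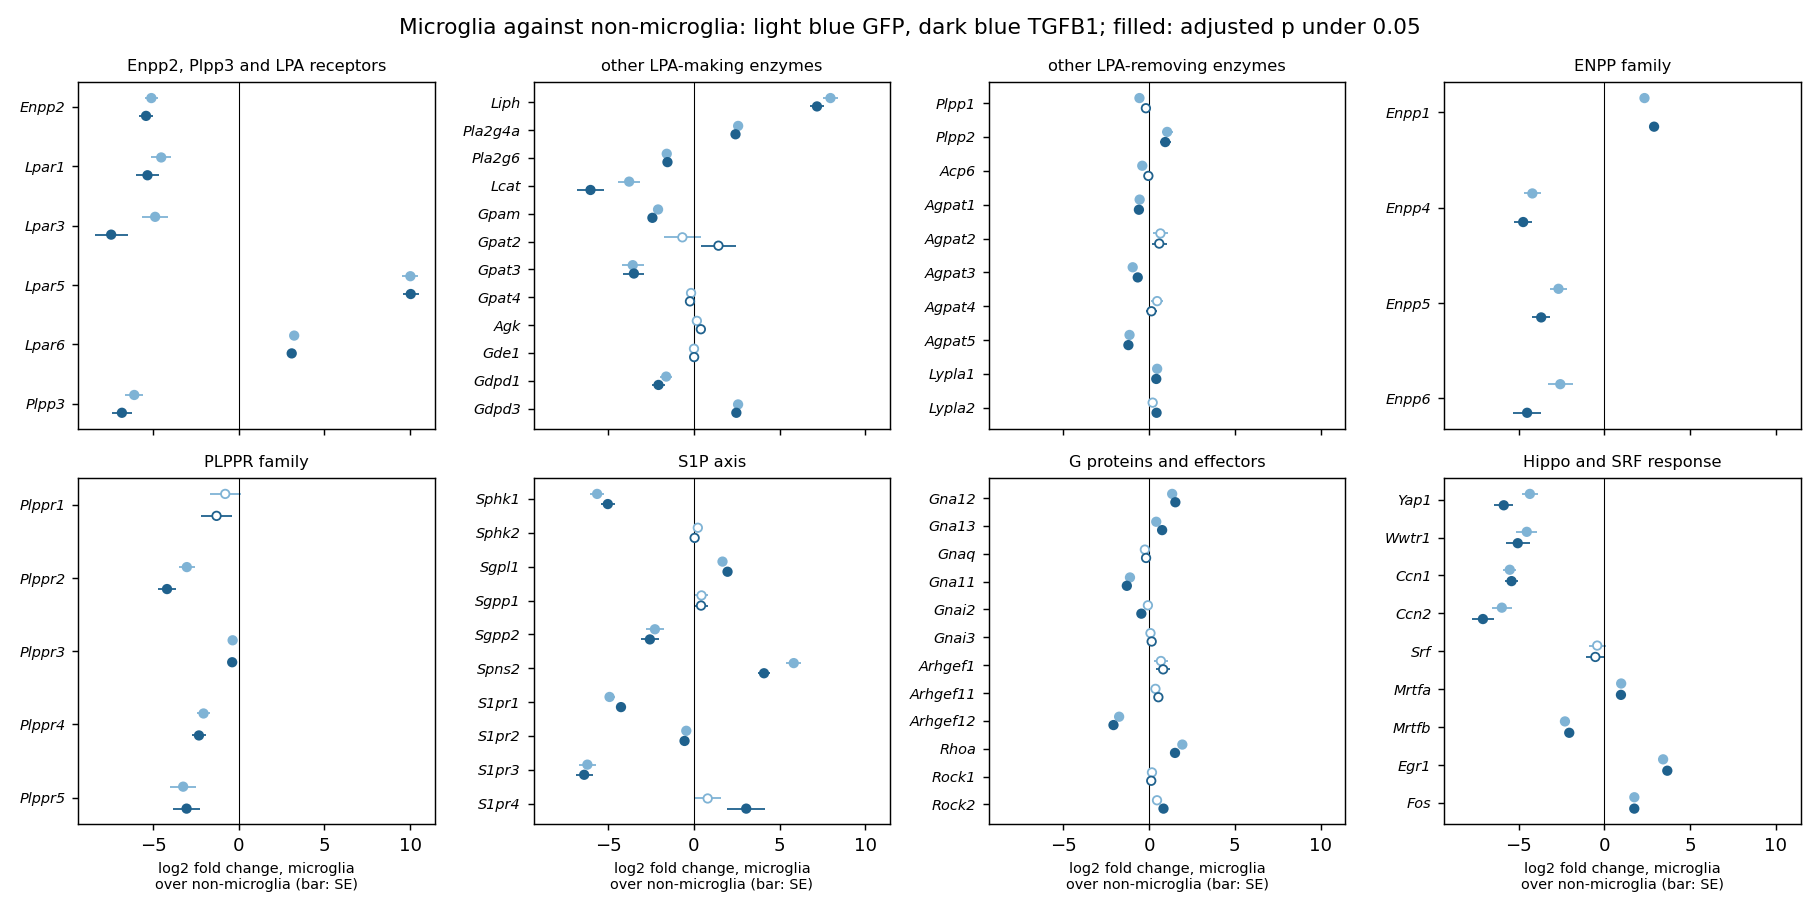
Log2 fold change of microglia against non-microglia for the members and the pathway genes that could be tested, in GFP (light) and TGFB1 (dark) libraries. Points are fitted values, filled where the adjusted p was under 0.05, and lines are 1 SE. Enpp2 (-5.09 and -5.40) and Plpp3 (-6.09 and -6.81) lie far to the left and Lpar6 (3.24 and 3.09) to the right, and the fitted values of Lpar3, Lpar5, Liph, Enpp6 and S1pr4, which have 0 to 3 counts in a group, are no bounds.

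The treatment of the microglia asks whether AAV8-TGFB1 changed these genes in the fraction where Lpar5 and Lpar6 were higher. Neither receptor differed beyond the spread between libraries. Lpar5 stood at 53.6 ± 3.93 CPM after GFP and 54.4 ± 7.61 CPM after TGFB1 (SD, n = 7 each), a log2 fold change of 0.01 (SE 0.10, edgeR adjusted p = 0.994). Lpar6 stood at 92.5 ± 10.1 and 93.4 ± 13.5 CPM (SD, n = 7 each), also a log2 fold change of 0.01 (SE 0.09, edgeR adjusted p = 0.995). A p that misses the threshold does not show equal levels, and the SE gives the precision. Of the 3 members tested 0 were called by edgeR, where 0.31% of the 10970 genes tested were, 0.237% higher and 0.0729% lower after TGFB1. The 2 microglial groups overlapped in all 8 genes, as they did in most others: 0.219% of the genes tested had groups that did not overlap.

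Enpp2 in the microglia was 7.68 ± 4.28 CPM after GFP and 4.49 ± 3.0 CPM after TGFB1 (SD, n = 7 each), with 6 of the 7 TGFB1 libraries below the GFP mean. The log2 fold change of -0.84 (SE 0.52, edgeR adjusted p = 0.869) did not pass the test. The adjusted p lay between 0.580 and 0.986 over the 23 alternative fits that gave one, and DESeq2 gave none. The summed level of the 8 Müller glia markers was highest in the libraries with the most Enpp2. After GFP these were replicates 2 and 5, with Enpp2 at 12.4 and 13.1 CPM and marker sums of 620 and 578 CPM, and after TGFB1 replicate 6, with Enpp2 at 8.47 CPM and a sum of 541 CPM. Other libraries did not follow that order: TGFB1 replicate 4 had the next highest sum of its group, 242 CPM, with Enpp2 at 2.92 CPM, and TGFB1 replicate 2 had a sum of 150 CPM with Enpp2 at 6.55 CPM. With the logarithm of this 8-marker sum as a covariate the log2 fold change was -0.30. With that of all 10 Müller glia markers, including Apoe and Glul, it was -1.30. The 10 markers summed to 5250 ± 434 CPM in GFP and 5749 ± 975 CPM in TGFB1 microglia (SD, n = 7 each). The 8 without Apoe and Glul summed to 339 ± 181 and 232 ± 141 CPM. Apoe and Glul thus made up most of the 10-marker covariate, and the 2 fits do not adjust for the same signal. Each of the 8 markers was counted in every microglial library. GFP replicate 2 also had the highest bipolar cell, endothelial and amacrine sums of its group, at 262, 138 and 85.4 CPM. TGFB1 replicate 6 had the highest of its group too, at 145, 71.3 and 61.4 CPM. GFP replicate 5 was not highest in these 3 sums, at 62.9, 38.7 and 31.9 CPM. It had the highest astrocyte sum of its group, at 75.5 CPM, where GFP replicate 7 had 51.9 and GFP replicate 2 had 48.9 CPM. Its pericyte sum, 26.1 CPM, was not the highest.

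In the non-microglia, Enpp2 was lower after TGFB1, and this is the contrast on which it was chosen, so its values are a description with no test. The TGFB1 libraries, at 162 and 189 CPM, lay below the GFP libraries, at 232 and 281 CPM, and their mean was 68.4% of the GFP mean. The log2 fold change was -0.54 (SE 0.11), and leaving out each of the 4 libraries in turn gave -0.66 to -0.40. Plpp3 had a log2 fold change of -0.13 (SE 0.09) and Lpar1 one of -0.26 (SE 0.25), and the groups of these 2 genes did not overlap either. Such separation, in 3 of the 8 genes, was common with 2 libraries a group: 36.4% of the 13598 genes tested showed it. Lpar3 had 0.34 (SE 0.41) and Lpar6 0.16 (SE 0.36), and their groups overlapped. With 2 libraries a group, the SE of the receptors exceeded or nearly equalled the difference. Of the 8 genes 5 passed the filter on low counts. The differences of Enpp2 in the 2 fractions were not tested against each other.

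Fewer cells of a type and less RNA per cell cannot be told apart in these sorted bulk samples. The marker sums of several cell types did not overlap between the treatments in the non-microglia. With 2 libraries a group, 36.4% of the single genes tested did not overlap either, so a lack of overlap alone does not show a change. The 8 Müller glia markers summed to 12726 and 12781 CPM after GFP and to 11089 and 11400 CPM after TGFB1, so that the TGFB1 mean was 88.2% of the GFP mean with no overlap. The endothelial sum was 89.1% and the pigment epithelium sum 90.7% of the GFP mean, both with overlapping libraries, and the pericyte sum was 131%, also overlapping. The cone sum was 74.0% and the erythroid sum 39.6% of the GFP mean, and the bipolar cell sum was 157%, each without overlap. The amacrine sum was 92.5% and the microglial sum 89.5%, also without overlap but with small gaps. The nearest TGFB1 and GFP libraries were at 321 and 326 CPM for the amacrine sum, and at 62.0 and 63.4 CPM for the microglial sum. The ganglion cell sum was 101%, with overlap. Among lists that summed to under 20 CPM in every non-microglial library, the horizontal cell sum was at 188%, the oligodendrocyte sum at 173% and the perivascular macrophage and monocyte sum at 174% of the GFP mean, each without overlap. Enpp2, at 68.4%, lay below the Müller glia, endothelial and pigment epithelium sums and above that of red cells, and the astrocyte sum was 98.9%. The part of cell composition in the lower Enpp2 was not tested.

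**Figure D4:**
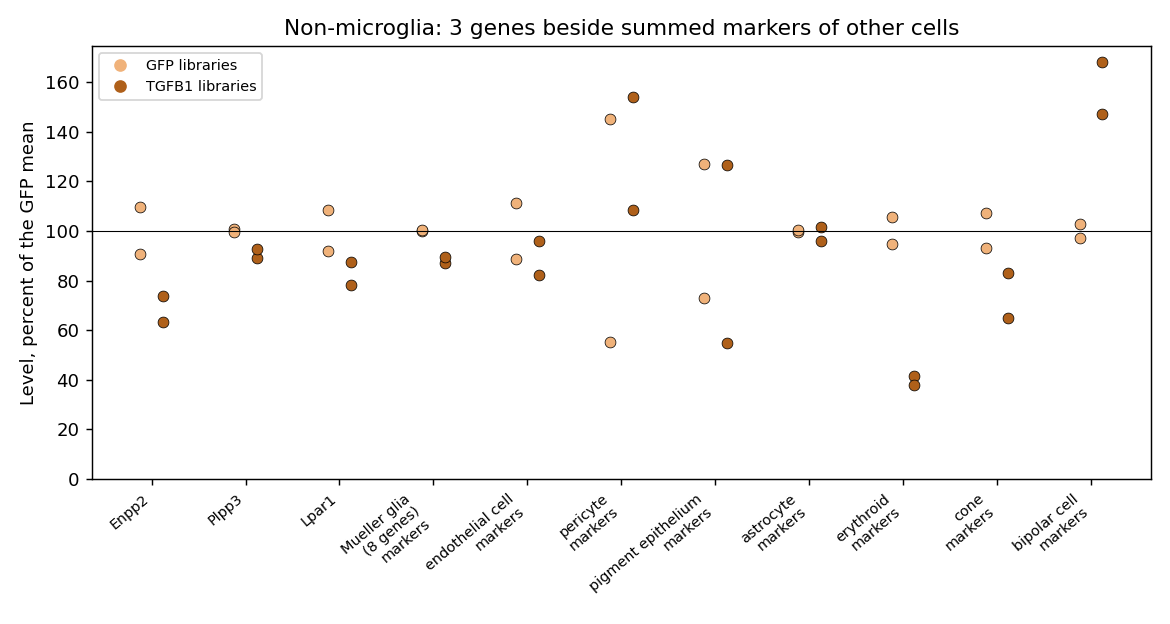
Enpp2, Plpp3, Lpar1 and 8 summed marker lists in the 4 non-microglial libraries, each as a percentage of its GFP mean. Each point is 1 library. Enpp2 in TGFB1 libraries averages 68.4% of its GFP mean, the 8 Müller glia markers 88.2% and the bipolar cell markers 157%.

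The wider pathway was covered by 70 other genes in 7 lists. In microglia, 46 of them could be tested between the treatments and 0 were called by edgeR, with a median log2 fold change of -0.06 against 0.00 over all genes tested. In non-microglia 59 could be tested and 0 were called, with a median of -0.05, where 0.39% of the 13598 genes tested were called, 0.338% higher and 0.0515% lower. An unadjusted p under 0.05 was reached by 730 of all genes in the microglia and by 1037 in the non-microglia. The closest to the threshold in the non-microglia was Ccn1, a secreted matrix protein and target of YAP and SRF, which stood at 219.5 ± 25.2 CPM after GFP and 161.8 ± 4.57 CPM after TGFB1 (SD, n = 2 each). Its log2 fold change of -0.43 (SE 0.10, edgeR adjusted p = 0.0658) passed without the filter on low counts, at an adjusted p of 0.0308, and without GFP replicate 2, at 0.00120. It also passed with the replicate number as a block, at 0.0241. Plpp1, a phosphatase related to Plpp3, had -0.51 (SE 0.14, edgeR adjusted p = 0.169), and -0.71 without TGFB1 replicate 2. The immediate early gene Fos had -0.32 (SE 0.17, edgeR adjusted p = 0.721), and -0.60 without GFP replicate 1. Neither Plpp1 nor Fos passed in a fit that kept every library. In the microglia Egr1 had a log2 fold change of 0.04 (edgeR adjusted p = 0.978) and Fos one of -0.34 (edgeR adjusted p = 0.778), neither of which passed.

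Between the fractions, 62 of the 70 genes could be tested. After GFP 14 were higher in microglia, 29 were lower and 19 did not pass. After TGFB1 17 were higher, 28 were lower and 17 did not pass. The median log2 fold changes were -0.37 and -0.20. As for the members, these counts stand beside a background of 64.2% and 65.2% of all genes. With edgeR's RLE size factors the counts were 13 higher and 29 lower after GFP, and 15 higher and 30 lower after TGFB1. In both, 0 of the called genes changed direction.

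Enzymes that make lysophosphatidic acid or its precursors lay on both sides. Of 12 tested of 14 in the list, 3 were higher in microglia, 5 lower and 4 did not pass after GFP, with the same counts after TGFB1. Gdpd3, a lysophospholipase D of the cell interior, stood at 293.8 ± 24.0 CPM (SD, n = 7) in GFP microglia and 49.1 ± 3.69 CPM (SD, n = 2) in GFP non-microglia, a log2 fold change of 2.58 (SE 0.12, edgeR adjusted p = 1.20e-15). Liph, a phospholipase that makes lysophosphatidic acid from phosphatidic acid at the cell surface, stood at 91.5 ± 12.9 CPM (SD, n = 7) in GFP microglia, against 2 counts in all in GFP non-microglia, a ratio of 292 with a 95% counting interval of 80.6 to 2410. After TGFB1 it stood against 3 counts, a ratio of 161 with an interval of 54.9 to 781. Pla2g4a, the cytosolic phospholipase A2, was also higher in microglia by 2.58 (SE 0.15, edgeR adjusted p = 2.34e-13). Gpam, the acyltransferase of the mitochondrial surface that makes intracellular lysophosphatidic acid, was lower in microglia, with a log2 fold change of -2.09 (edgeR adjusted p = 1.03e-07), as was the phospholipase Pla2g6 with -1.58 (edgeR adjusted p = 6.88e-06). Gpat3, at -3.56, shares 37.4% of its exon bases with other annotated genes and is uncertain. Other pathway genes named here share fewer, among them Plpp1 with 25.8%, Agpat5 with 18.9%, Gdpd3 with 13.6% and Gna12 with 13.3%. As strand use is not given, part of their counts may belong to the overlapping genes, which was not tested. Lcat, the plasma cholesterol acyltransferase, was lower in microglia than in non-microglia after both treatments. Its log2 fold change was -3.77 after GFP (SE 0.66, edgeR adjusted p = 7.42e-05) and -6.03 after TGFB1 (SE 0.80, edgeR adjusted p = 3.24e-06). The microglia held 37 counts of it in all after GFP, 19 of them in 1 library, and 8 after TGFB1.

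Among 10 enzymes that remove lysophosphatidic acid, all tested, 2 were higher in microglia, 5 were lower and 3 did not pass after GFP, and 3, 3 and 4 after TGFB1. Plpp2, a phosphatase of the same family as Plpp3, was higher in GFP microglia at 15 ± 3.72 CPM (SD, n = 7) against 7.16 ± 1.08 CPM (SD, n = 2), a log2 fold change of 1.06 (edgeR adjusted p = 0.00507). The acyltransferases Agpat3 and Agpat5, which turn lysophosphatidic acid into phosphatidic acid, were lower in microglia, with log2 fold changes of -0.95 and -1.14 after GFP. The small differences of Lypla1 after both treatments, and of Lypla2 after TGFB1, were lost with the other size factors.

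The relatives of Enpp2 followed no single pattern. Of 4 tested of 6 ENPP genes, 1 was higher and 3 were lower in microglia in both treatments. Enpp1, which makes pyrophosphate from ATP, was higher in microglia at 32.5 ± 6.69 CPM (SD, n = 7) against 6.34 ± 1.83 CPM (SD, n = 2) after GFP, a log2 fold change of 2.35 (edgeR adjusted p = 9.05e-08). Enpp4 and Enpp5 were lower, with -4.19 and -2.67 after GFP and -4.73 and -3.68 after TGFB1. Enpp6, a choline phosphodiesterase, had a log2 fold change of -2.56 after GFP and, after TGFB1, 35 counts in non-microglia against 3 in microglia, a ratio of 28.2 with a 95% counting interval of 8.89 to 143. Of the 5 phospholipid phosphatase-related genes, which are mostly neuronal, 4 were lower in microglia and 1 did not pass after either treatment. Plppr2 stood at 21.9 ± 1.44 CPM (SD, n = 2) in GFP non-microglia and 2.69 ± 1.83 CPM (SD, n = 7) in GFP microglia.

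The sister lipid sphingosine 1-phosphate has receptors of the same Edg family, and its genes were split as well. Of 10 tested of 12, 2 were higher in microglia, 5 lower and 3 did not pass after GFP, and 3, 5 and 2 after TGFB1. S1pr1 stood at 577 ± 30.8 CPM (SD, n = 2) in GFP non-microglia and 19.7 ± 10.3 CPM (SD, n = 7) in GFP microglia, a log2 fold change of -4.92 (edgeR adjusted p = 2.68e-10). S1pr3 stood at 477 ± 7.68 and 6.80 ± 5.04 CPM in the same groups, a log2 fold change of -6.21 (edgeR adjusted p = 1.80e-08). The kinase Sphk1 was lower in microglia, with -5.64, and the exporter Spns2 was higher, at 38.2 ± 7.49 CPM (SD, n = 7) against 4 counts in GFP non-microglia, with a log2 fold change of 5.82 (edgeR adjusted p = 3.71e-11). Sgpl1, the lyase that degrades sphingosine 1-phosphate, was higher by 1.67 after GFP and 1.96 after TGFB1.

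Of the G proteins and effectors behind the receptors, 12 of 13 were tested. After GFP 3 were higher in microglia, 2 were lower and 7 did not pass, and after TGFB1 4 were higher, 3 were lower and 5 did not pass. Rhoa, the small GTPase at the end of the Gα12/13 path, stood at 408 ± 83.4 CPM (SD, n = 7) in GFP microglia and 106.5 ± 18.9 CPM (SD, n = 2) in GFP non-microglia, a log2 fold change of 1.94 (edgeR adjusted p = 2.19e-06). Gna12 was higher by 1.35 and Gna13 by 0.42 after GFP, and Arhgef12, an exchange factor that links these G proteins to RhoA, was lower, with a log2 fold change of -1.75. Of the response genes, 9 of 10 were tested, and 3 were higher and 5 lower in microglia in both treatments. Egr1 and Fos were higher, by 3.43 and 1.75 on the log2 scale after GFP, with Egr1 at 877 ± 133 CPM (SD, n = 7) in microglia and 81.3 ± 16.9 CPM (SD, n = 2) in non-microglia. Yap1 and Ccn1 were lower, with -4.34 and -5.51. The SRF cofactors parted, Mrtfa being higher in microglia by 0.99 and Mrtfb lower, with -2.29.

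The genes whose levels were most like the members' over the 18 libraries were ranked by Pearson's r of log2(CPM + 1) among 10866 protein-coding genes. For Enpp2 they were Cryab (r = 0.979), Nlgn1 (0.978), Sdc2 (0.977), Mlc1 (0.976) and Cav1 (0.976). For Plpp3 they were Ncam1 (r = 0.992), Ptn (0.990), Bcat1 (0.990), Rlbp1 (0.990) and Gpm6a (0.988). For Lpar6 they were Ifngr1 (r = 0.996), Cd300lf (0.996), Acer3 (0.995), Scamp2 (0.995) and Rhoh (0.994). These values describe 18 libraries that fall into the 2 fractions, so any gene with a large difference between fractions scores high.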

How the data were processed

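RNA of 18 sorted retinal samples was measured by sequencing of polyadenylated RNA with a modified Smart-Seq2 protocol, per the labels' protocols. The authors deposited 1 table of raw counts per gene. STAR, featureCounts, DESeq2 and the build GRCm38.p6 are named in the submitters' processing notes. Which settings, annotation and strand use they had is not given in the sources used here. Of 54532 identifiers, 54409 matched GENCODE M21, from which symbols, positions and exon lengths were taken. Promoters are from RefSeq.

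From the counts, edgeR 4.0.16 in R 4.3.3 gave TMM factors, the filterByExpr filter and robust quasi-likelihood tests, with Benjamini-Hochberg adjustment over all genes tested and a threshold of 0.05. The treatments were compared within the 14 microglial or the 4 non-microglial libraries, and the fractions in a fit of all 18. SE is the log2 fold change divided by the square root of F. Levels are CPM on TMM-scaled library sizes, and CPM per kilobase of exon where genes are compared. A limit for 0 counts is 3 counts, or 0.881 to 2.12 CPM by library; limits and 95% intervals cover counting error only. Alternatives used limma 3.58.1 and DESeq2 1.42.0. The tests were tried on simulated data.

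The members and lists were chosen with earlier results of these data known. Named were all 8 members and, of each list and comparison, up to 3 called genes in each direction by smallest p, or 2 of the highest level where none passed, of which the text gives a selection. Ccn1, Plpp1 and Fos in the non-microglial treatment comparison, the promoter motifs and the 8-gene Müller glia set were chosen after values were seen.

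Besides the marker lists given, 1 further list is not reported here.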

Additional observations from a re-analysis of the deposited data

Results flagged for a closer look

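Of 16 groups of 7 microglial libraries, 1 group per gene and treatment, 3 had a library set apart from the others by more than 0.568 of the group's range. For normally distributed values chance gives about 1 in 20 such groups. That rate does not carry over to low counts such as those of Lpar1, with 0 to 7 after GFP and 0 to 5 after TGFB1. Lpar3 in TGFB1 microglia, at 0 counts throughout, could not be flagged. The 3 groups are therefore not set against that rate. Lpar1 in GFP microglia was highest in replicate 7, at 2.63 CPM from 7 counts, and the next library was at 1.11 CPM. Lpar1 in TGFB1 microglia was highest in replicate 6, at 3.53 CPM from 5 counts, with the next library at 0.489 CPM. Plpp3 in TGFB1 microglia was also highest in replicate 6, at 19.8 CPM from 28 counts, with the next library at 3.28 CPM. TGFB1 replicate 6 also had the highest Müller glia sum of its group, 541 CPM over 8 markers. The other 6 TGFB1 microglial libraries had 138 to 242 CPM. That replicate was also highest of its group in the bipolar cell (145 CPM), endothelial (71.3 CPM), amacrine (61.4 CPM), pericyte (53.6 CPM) and astrocyte (36.0 CPM) sums. It was not highest in the cone, ganglion cell, horizontal cell and pigment epithelium sums. The part of other cells in the high Plpp3 and Lpar1 was not tested.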

How the results depend on the processing

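Enpp2, Plpp3, Lpar1, Lpar5 and Lpar6 differed between the fractions, in the same direction and past the threshold, in both treatments under every alternative run (other size factors, no filter, no robust dispersion, DESeq2, limma voom, a replicate block, libraries of 1 treatment, and each library left out), and so did Lpar3 except with the replicate block after GFP (log2 fold change -3.92). In the microglia no member was called under any alternative. The near-zero changes of the receptors there turned sign: Lpar5 to -0.0074 with limma voom, -0.0095 with the 10 Müller glia markers as a covariate and -0.045 with 8 of them, Lpar6 to -0.032 and -0.039 with these covariates, and from -0.032 to 0.048 for Lpar5 and -0.044 to 0.058 for Lpar6 with a library left out. In the non-microglia, leaving out a library gave -0.098 to 0.39 for Lpar6, -0.18 to 0.73 for Lpar3 and -0.66 to -0.40 for Enpp2.

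The number of all genes called in the microglia, 34, became 64 without the filter, 60 with the replicate block, 15 in a fit of all 18 libraries, 56 with Xist and 17 with the 8-marker sum as a covariate (the last chosen after seeing the data), and 16 to 34 with a library left out; GFP replicate 3 left out gave 19, TGFB1 replicate 7 gave 21, and TGFB1 replicate 8 gave 16. Those called higher, 26, became 41 with the block, 11 in the fit of all 18, 40 with Xist, 10 with the 8-marker sum and 10 to 26 with a library left out. In the non-microglia, 53 became 102 without the filter, 33 with DESeq2, 109 with the block, 4 in the fit of all 18 and 28 to 110 with a library left out (110 without either GFP replicate, 28 without TGFB1 replicate 1). Those called higher, 46, became 86, 29, 89, 4 and 22 to 87 in the same order. Pathway genes called there went from 0 to 1 without the filter and with the block, and 0 to 1 with a library left out. The cause was not tested. Same-numbered libraries correlated between -0.12 and 0.22 in the microglia, over 0.1 in 5 of 7 pairs, with 2 of 7 best matched to their own number, and at -0.07 in the non-microglia. Xist was present in the same numbers (2, 7 and 8) of both microglial groups. As no label ties the numbers together and not every pair correlated, they were not taken as pairs, which leaves a shared source of some numbers untested. Depth limits Lpar2, with 3 to 9 counts in a library, and Lpar4, with 0 to 6. It also limits Lpar3, with 0 to 2 counts in a microglial library and 19 to 36 in a non-microglial one.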
